A study of Homo sapiens with 12 samples.

Results

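Shores are the stretches of moderate CpG density that flank CpG-dense DNA. Here they were 1 kb tiles on chromosomes 1 to 22 with 5 to 17 measured CpGs that lay 1 or 2 tiles from a tile with at least 46 measured CpGs, called a dense tile below. The rule used CpG counts and positions in the 5mC table and no methylation value. It found 8643 tiles among 379247 tiles in all, of which 348009 were on chromosomes 1 to 22, and 8431 of them also had at least 5 CpGs in the 5hmC table. Their 85131 CpGs were 2.31% of the 3689712 CpGs measured. Adjacent tiles count as 1 tile away, with 5636 members, and the next ones out as 2 tiles away, with 3007 members. A tile counts as dense by the CpGs that the library covered, so the rule follows coverage as well as genome sequence.

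The cells were SV-HUC-1, an epithelial line from human ureter immortalised with SV40, and all samples share that line. They had received 2,6-dichloro-1,4-benzoquinone (DCBQ), a by-product of drinking water disinfection, or a blank solution as control, both for 3 days. Each condition had 3 reduced representation bisulfite (RRBS) and 3 oxidative RRBS libraries, which the authors turned into 3 values of 5-methylcytosine (5mC) and 3 of 5-hydroxymethylcytosine (5hmC) per condition at each CpG. The labels give no dose and do not name separate cultures as the source of the samples. The p-values therefore compare these samples only, and their spread may be technical. Depth per CpG is unknown, so levels carry no counting interval. Across shore tiles, pairs of samples correlated at 0.993 to 0.994 for 5mC and at 0.391 to 0.452 for 5hmC. The levels themselves spread over an SD of 34.520 points between tiles for 5mC and 2.082 for 5hmC, while the median SD of a tile's 5hmC was 1.287 points over DCBQ samples and 1.233 over controls.

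Most CpG islands at gene starts are kept free of 5mC, whereas the CpG-poor genome around them is mostly methylated. The boundary between those states falls in the shore, and shore methylation is known to differ between tissues and between tumour and normal tissue more often than that of the island itself. DNMT enzymes place 5mC, and TET enzymes oxidise it to 5hmC.

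Shores lay close to genes. Other tiles with 5 to 17 CpGs numbered 140943, and dense tiles 12601. The shares of tiles at genes and gene starts are for the 21 autosomes for which gene starts were at hand. These held 8331 shore, 135045 other and 12074 dense tiles, and the starts covered 82% of their 18411 protein-coding genes. A protein-coding gene was overlapped by 64.09% of shore tiles, against 55.38% of other tiles and 81.82% of dense tiles. The centre lay within 3 kb of a listed start in 56.43% of shore tiles, against 7.01% of other tiles and 58.53% of dense tiles. A listed start lay in 432 shore tiles (5.19%), against 1.62% of other tiles and 40.91% of dense tiles. A shore tile had a median of 9 CpGs, other tiles 8 and dense tiles 63. Of the dense tiles, 57.1% had a shore.

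The promoters that lay wholly inside a shore tile describe only a small part of the shores, as 5.19% of shore tiles held a listed start. In the 300 bases from 250 before to 50 after the start (RefSeq, GRCh38.p14, which shares its coordinates with the hg38 build of the data), 317 shore promoters had a median GC content of 59.33% and 15 CpG dinucleotides. The 4313 promoters inside dense tiles had 72.33% and 34 CpGs, the 1748 inside other tiles 59.67% and 16, and all 21041 promoters 62.67% and 21. The GC box GGGCGG was present on either strand in 49.21% of shore promoters, against 50.29% in other tiles, 86.41% in dense tiles and 56.57% of all promoters. A TATAAA box was present in 8.83% of shore promoters, against 8.35% in other tiles, 3.34% in dense tiles and 9.54% of all. CCAAT was found in 34.07%, against 37.87% in other tiles, 29.24% in dense tiles and 34.39% of all. The core TGACNNNGC belongs to the antioxidant response element, the site bound by the stress factor NRF2. It was in 12.93% of shore promoters, against 12.24% in other tiles, 15.14% in dense tiles and 13.76% of all. These are matches of letters in a window and not sites of binding. Tile classes were set by measured CpGs, so the lower CpG, GC and GGGCGG values than in dense tiles follow in part from the rule.

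Of these promoters, 5 had every CpG of their 250 upstream bases measured and at least 7 of them. Of the 5, 2 were under 20% 5mC and 3 over 80%, with none between. They are shown from 5′ to 3′ along the gene, in lower case, with each measured CpG in capitals.
CLDN7: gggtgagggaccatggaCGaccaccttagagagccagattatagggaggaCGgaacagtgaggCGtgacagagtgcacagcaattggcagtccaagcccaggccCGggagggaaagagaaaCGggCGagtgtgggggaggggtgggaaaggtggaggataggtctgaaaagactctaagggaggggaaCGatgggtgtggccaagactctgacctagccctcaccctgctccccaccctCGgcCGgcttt
MYRIP: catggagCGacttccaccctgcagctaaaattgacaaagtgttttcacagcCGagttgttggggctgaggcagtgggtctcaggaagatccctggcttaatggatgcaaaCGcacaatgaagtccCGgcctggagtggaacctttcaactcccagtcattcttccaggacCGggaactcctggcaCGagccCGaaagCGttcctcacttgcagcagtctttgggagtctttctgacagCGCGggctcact
TAS1R1: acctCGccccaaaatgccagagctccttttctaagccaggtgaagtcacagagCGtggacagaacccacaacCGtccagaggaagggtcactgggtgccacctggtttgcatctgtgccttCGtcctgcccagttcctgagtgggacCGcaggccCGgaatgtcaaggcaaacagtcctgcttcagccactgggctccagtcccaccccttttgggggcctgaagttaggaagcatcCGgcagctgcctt
RASIP1: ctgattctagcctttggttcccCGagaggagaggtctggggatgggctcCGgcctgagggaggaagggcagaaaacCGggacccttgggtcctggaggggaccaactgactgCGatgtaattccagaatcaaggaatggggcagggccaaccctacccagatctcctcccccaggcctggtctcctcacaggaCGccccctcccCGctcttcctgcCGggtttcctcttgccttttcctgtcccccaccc
ACTL10: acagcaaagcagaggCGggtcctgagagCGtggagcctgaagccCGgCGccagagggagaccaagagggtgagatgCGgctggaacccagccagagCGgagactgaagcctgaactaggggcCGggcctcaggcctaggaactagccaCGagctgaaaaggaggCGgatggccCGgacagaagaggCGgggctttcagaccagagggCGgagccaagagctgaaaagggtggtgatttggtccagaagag
The windows are, in hg38, chr17:7263214-7263463 on the minus strand for CLDN7, chr3:39808664-39808913 on the plus strand for MYRIP and chr1:6555057-6555306 on the plus strand for TAS1R1. RASIP1 is at chr19:48740611-48740860 on the minus strand and ACTL10 at chr20:33666693-33666942 on the plus strand.

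CLDN7, a claudin of epithelial tight junctions, was nearly free of 5mC over its 9 CpGs, with 1.73%, 1.57% and 3.12% in DCBQ samples, against 2.96%, 1.13% and 1.86% in controls. MYRIP, which links RAB27A to myosin motors, read 17.41%, 12.38% and 15.39% over 10 CpGs in DCBQ samples, against 10.93%, 15.96% and 12.71% in controls. Both lie beside dense tiles with under 2% 5mC (1.35% and 1.40%), and in both the groups overlapped. TAS1R1, a taste receptor gene, lies beside a dense tile with only 1.21% 5mC, yet averaged 81.25% ± 4.68 (SD, n = 3) in DCBQ samples and 82.07% ± 1.48 in controls. Its 7 CpGs were not alike. Those at positions 122 and 148 of the sequence above, counted from its 5′ end, averaged 100% in DCBQ samples and 100% in controls, whereas the one at 156 averaged 49.7% in DCBQ samples and 57.2% in controls. RASIP1, an endothelial RAS-interacting gene, averaged 83.64% ± 2.33 in DCBQ samples and 84.79% ± 0.70 in controls beside a dense tile with 5.71%. The CpG at position 50 of that window averaged 36.2% in DCBQ samples and 40.5% in controls, while the other 6 were at 78.6% or more in DCBQ samples and 74.3% or more in controls. ACTL10, an actin-like gene, lies beside a heavily methylated dense tile (94.98%) and read 87.52%, 87.52% and 86.95% over 12 CpGs in DCBQ samples, against 89.53%, 90.38% and 89.16% in controls. Its groups did not overlap, with a difference of -2.36 points (SE 0.41) and a two-sided exact permutation p of 0.1, the smallest that 3 samples against 3 allow.

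Of the 162 shore promoters with a measured CpG in those 250 bases, 77 had at least 5. Averaged over all 6 samples, 58 of the 77 were under 20% 5mC, 13 between 20% and 80%, and 6 at 80% or more. The genes named here were picked after their values were seen. The low ones included the glucocorticoid receptor gene NR3C1, the lactate dehydrogenase gene LDHA, the hedgehog receptor gene PTCH1 and SOX2, a stem cell factor gene. Of the CpGs in their 250 bases, 14 of 20 were measured in NR3C1, 12 of 25 in LDHA, 8 of 19 in PTCH1 and 6 of 20 in SOX2. The rule counts measured CpGs only, so such promoters can be denser in CpGs than their tile's count shows. NR3C1 averaged 2.49% ± 1.98 in DCBQ samples and 2.02% ± 1.98 in controls, and PTCH1 1.43% ± 1.42 in DCBQ samples and 0.58% ± 0.36 in controls. The high ones included NBEA and MAB21L1, neural genes that share a dense tile with 4.03% 5mC. Their windows overlap on opposite strands and share most of their measured CpGs, so they are not separate readings. Here 9 of 11 CpGs were measured in NBEA, 8 of 10 in MAB21L1 and 7 of 13 in TRIM2, another high one. NBEA averaged 87.93% ± 1.48 in DCBQ samples and 87.43% ± 2.14 in controls, and TRIM2 82.99% ± 0.50 in DCBQ samples and 84.25% ± 2.97 in controls. DUSP6, a phosphatase gene that restrains ERK signalling, read 2.01%, 2.16% and 2.16% in DCBQ samples, against 0.77%, 1.44% and 0.93% in controls. TMEM114 read 42.95%, 43.37% and 35.23% in DCBQ samples, against 44.48%, 48.75% and 54.40% in controls. DUSP6, TMEM114 and ACTL10 were 3 of the 7 promoters among the 77 whose groups did not overlap. Of the 77, 4 (5.19%) were lower and 3 (3.9%) higher in DCBQ samples, against 8.11% lower and 3.39% higher among all 1 kb tiles tested.

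Shores were a mixture of unmethylated and methylated tiles, and the mixture differed with distance from the dense tile and with its state. At 1 tile, mean 5mC was 49.655% ± 0.123 (SD, n = 3) in DCBQ samples and 50.040% ± 0.157 in controls. At 2 tiles it was 75.276% ± 0.148 in DCBQ samples and 75.931% ± 0.171 in controls. The other tiles of like CpG count averaged 73.669% in DCBQ samples and 74.271% in controls, and dense tiles 25.171% in DCBQ samples and 25.307% in controls. Tiles 3 to 20 tiles away ranged from 76.791% to 78.269% in DCBQ samples and from 77.419% to 78.856% in controls, above the means of both shore distances. Over all shores, the share of tiles under 20% 5mC was 23.962% to 24.054% in DCBQ samples and 23.776% to 23.927% in controls, without overlap. At the CpG limits of the rule, mean 5mC was 62.299% in DCBQ samples and 62.928% in controls for tiles with 5 CpGs, and 61.655% in DCBQ samples and 62.253% in controls for excluded tiles with 4. Tiles with 17 CpGs averaged 49.602% in DCBQ samples and 49.963% in controls, and excluded tiles with 18 averaged 46.515% in DCBQ samples and 46.751% in controls.

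Beside dense tiles with under 20% 5mC, which were the neighbours of 5590 shore tiles, the level climbed steeply with distance. The edge of a dense tile is a line of the fixed 1 kb grid and need not be where CpG-dense DNA ends. Beside these tiles the first 200 bp held 19502 measured CpGs, 201 to 400 bp 6364 and 1801 to 2000 bp 2990. Whether the slope follows from CpG-dense DNA that crosses the line was not tested. CpGs within 200 bp of the dense tile's edge averaged 16.579% in DCBQ samples and 16.770% in controls, those at 401 to 600 bp 57.984% in DCBQ samples and 58.463% in controls, and those at 1801 to 2000 bp 77.955% in DCBQ samples and 78.580% in controls. The 1265 shores with a neighbour at 80% or more showed no such slope. Their nearest CpGs averaged 83.877% in DCBQ samples and 84.102% in controls, with a shallow minimum of 75.308% in DCBQ samples and 75.839% in controls at 1001 to 1200 bp. The 1788 shores beside dense tiles of 20% to 80% lay between, at 66.168% in DCBQ samples and 66.460% in controls nearest the edge. By 1801 bp the shores of all 3 kinds were within 73.972% to 79.301% in DCBQ samples and 74.419% to 79.582% in controls. Classes come from the dense tile's mean over all 6 samples and not from the shore.

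**Figure D1:**
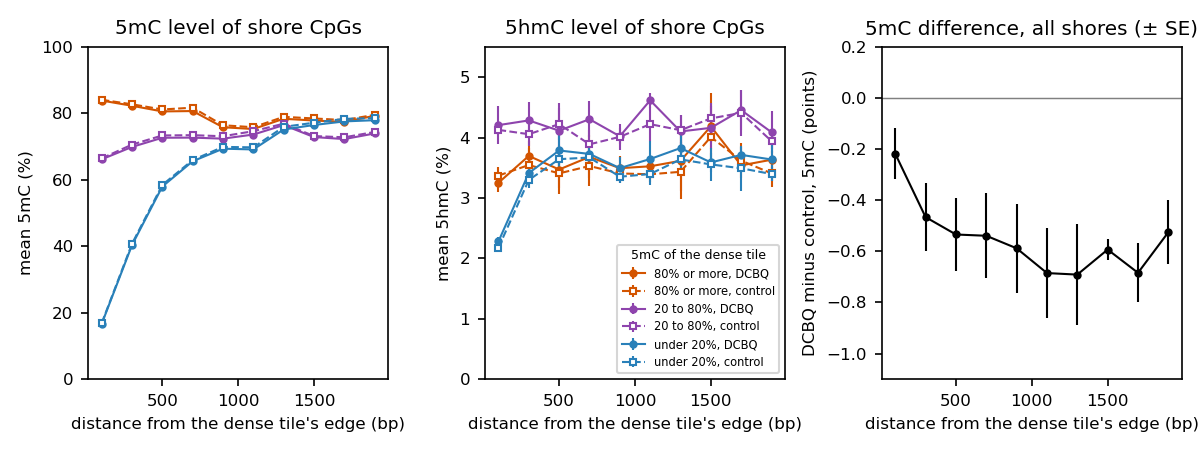
Mean 5mC (left) and 5hmC (middle) of shore CpGs in percent against the distance in bp from the edge of the dense tile, in 200 bp bins, for DCBQ (filled) and control (open), by the dense tile's own 5mC; bars are the SD of 3 samples. The right panel gives the difference in mean 5mC, DCBQ minus control, over all shores with its SE: it was -0.218 points in the first 200 bp and -0.691 to -0.466 points farther out.

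Of the 10293 runs of adjacent dense tiles, few had a shore tile on both sides at the same distance. In those that had, the 2 sides often differed. Where shore tiles flanked the same run of dense tiles on both sides at 1 tile (765 pairs), their levels correlated at only 0.224 across pairs, with a median gap of 22.025 points. In 127 pairs (16.601%) 1 side was under 20% and the other at 80% or more, while both were under 20% in 104 and both at 80% or more in 114. At 2 tiles (322 pairs) the correlation was 0.114 and the median gap 9.158 points. There 142 pairs were at 80% or more on both sides, and 20 (6.211%) were in opposite states. These are descriptions across places of the same samples. Runs end on lines of the fixed 1 kb grid, and whether the placement of that grid made the sides differ was not tested.

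Shores on the transcribed side of a gene start had less 5mC than those before it. Beside low dense tiles and 1 tile away, the 1227 shores downstream of the nearest listed start, inside the transcribed side, averaged 31.06% in DCBQ samples and 31.45% in controls, whereas the 1081 upstream ones averaged 44.42% in DCBQ samples and 44.73% in controls. The gap was between -13.44 and -13.21 points in each of the 6 samples. It differed between DCBQ and control by -0.08 points (SE 0.09, two-sided exact permutation p = 0.4). At 2 tiles the gap was only -1.38 to -0.88 points. Over all neighbour states and both distances, shores that held a listed start were lowest, at 25.321% in DCBQ samples and 25.569% in controls. Those inside genes but over 3 kb from a listed start were at 68.806% in DCBQ samples and 69.334% in controls. Beside low dense tiles alone, these 2 kinds were at 17.995% and 50.268% in DCBQ samples, and 18.229% and 50.727% in controls. Upstream shores of that set were at 56.576% and downstream ones at 46.588% in DCBQ samples, and at 57.036% and 47.060% in controls.

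The study asked whether DCBQ alters 5mC and 5hmC, and shores as a whole read slightly less 5mC after DCBQ. The sample means were 58.553%, 58.699% and 58.453% in DCBQ samples, against 59.227%, 58.979% and 58.938% in controls. All 3 DCBQ samples were below all 3 controls, by -0.479 points (SE 0.115, two-sided exact permutation p = 0.1, adjusted p = 0.2 over 8 contrasts). This design cannot go below 0.1. The difference was negative on 22 of 22 chromosomes, from -0.690 to -0.186 points, with groups apart on 16, though the chromosomes come from the same samples. The share of shore tiles at 80% or more was 42.242% in DCBQ samples and 43.191% in controls, and the share between 20% and 80% was 33.758% in DCBQ samples and 32.963% in controls, both without overlap.

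The 5mC difference varied along the shore. It was smallest in the first 200 bp, where the groups overlapped, and larger in the methylated outer shore, with -0.385 points (SE 0.115) at 1 tile and -0.655 (SE 0.130) at 2 tiles. The contrast of the first against the second tile was 0.270 points (SE 0.076, groups apart, exact permutation p = 0.1). Shores differed less than other tiles of like CpG count, whose own difference was -0.602 points (SE 0.131). That contrast was 0.123 points (SE 0.035, groups apart, exact permutation p = 0.1, adjusted p = 0.2), but -0.053 for the outer shore alone and 0.074 with overlapping groups once the other tiles were weighted to the shores' 5mC levels. Against dense tiles, which differed by -0.136 points with overlapping groups, the contrast of shores was -0.343 points (SE 0.078, groups apart, p = 0.1 by the same exact test). Beyond the shore, tiles at each distance of 3 to 20 tiles differed by -0.772 to -0.508 points. Shores beside low dense tiles differed by -0.443 points (SE 0.087) and those beside high ones by -0.501 points (SE 0.171). Their contrast was 0.057 points (SE 0.092, exact permutation p = 1) with overlapping groups.

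**Figure D2:**
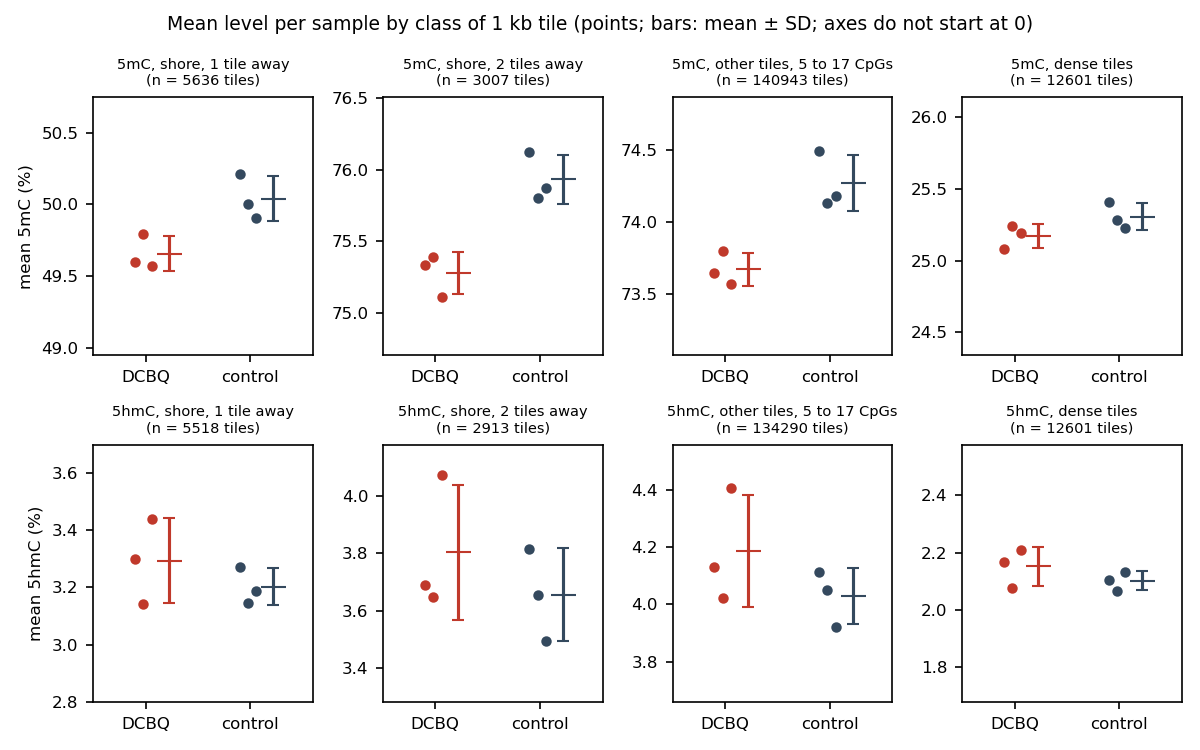
Mean 5mC (top) and 5hmC (bottom) per sample in percent, for shore tiles 1 and 2 tiles away, other tiles with 5 to 17 CpGs and dense tiles; points are samples, bars the mean and SD, and the axes do not start at 0 but span the same height within a mark. For 5mC the DCBQ samples lie below the controls in every panel but that of dense tiles, where they overlap, and for 5hmC the groups overlap in all panels.

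**Figure D3:**
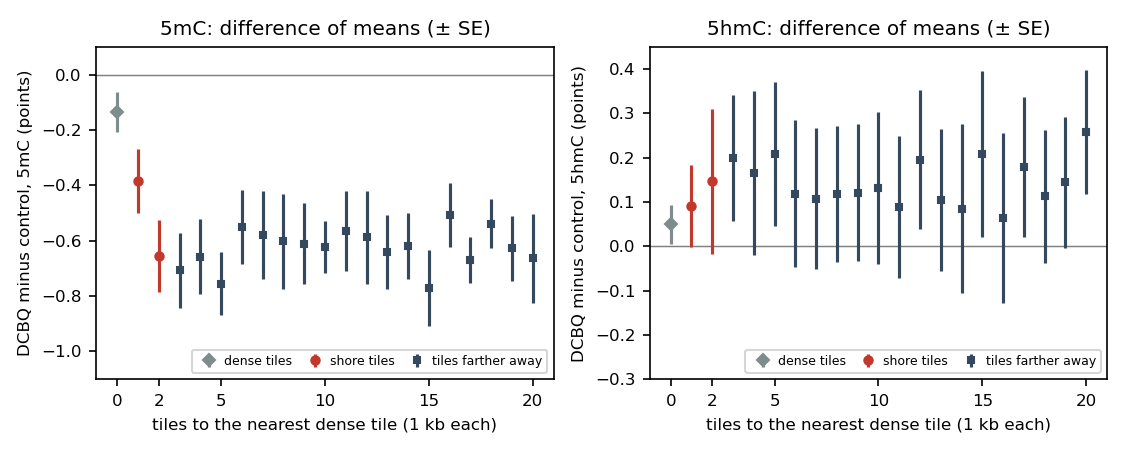
Difference of mean levels, DCBQ minus control, in percentage points with its SE, against the number of 1 kb tiles to the nearest dense tile; dense tiles stand at 0. The 5mC difference was -0.136 points in dense tiles, -0.385 and -0.655 in shore tiles 1 and 2 away, and -0.772 to -0.508 farther out. For 5hmC it was 0.050 in dense tiles and 0.091 and 0.147 in the shore tiles.

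Within classes of a tile's own 5mC, shores read less of a difference than other tiles where the level was low or intermediate. At 20% to 50%, 761 shore tiles differed by -0.757 points (SE 0.255) and 10115 other tiles by -1.233 (SE 0.230), a contrast of 0.475 points (SE 0.146). At 5% to 20% the contrast was 0.385 points (SE 0.131). Under 5% it was 0.073 points (SE 0.034). At 95% to 100% it had the other sign, -0.071 points (SE 0.019). All 4 had groups apart, with p = 0.1 by exact permutation and 0.3 after adjustment over 12 contrasts. At 50% to 80% and at 80% to 95%, the classes with most shore tiles, the contrasts were -0.076 (SE 0.086) and 0.031 points (SE 0.024) with overlapping groups. Shores with under 5% 5mC read 1.881% ± 0.122 in DCBQ samples and 1.950% ± 0.070 in controls, with overlap.

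**Figure D4:**
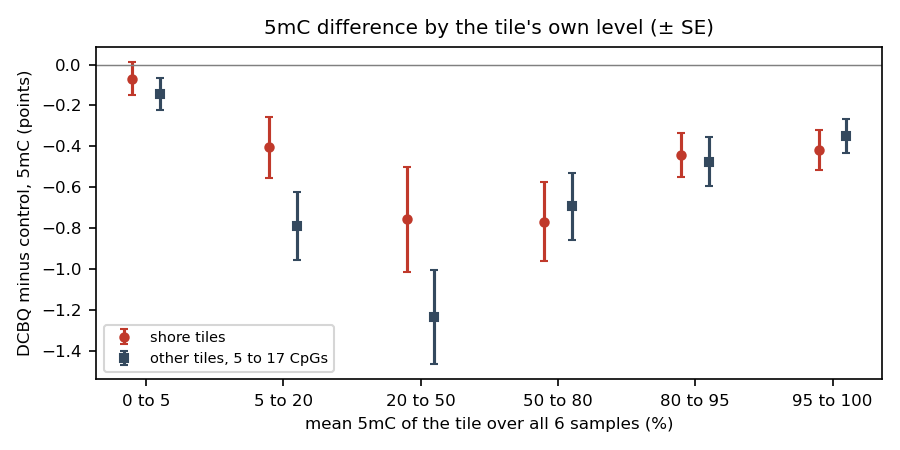
Difference of mean 5mC, DCBQ minus control, in percentage points with its SE, for shore tiles (circles) and other tiles with 5 to 17 CpGs (squares), by the tile's mean 5mC over all 6 samples. Both sets lie furthest below 0 at intermediate levels, and the shore value is nearer to 0 at 5 to 50%.

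For 5hmC the shore means were 3.434%, 3.317% and 3.658% in DCBQ samples, against 3.460%, 3.323% and 3.295% in controls. The groups overlapped, and the difference of 0.110 points (SE 0.112, two-sided exact permutation p = 0.6) rested on the third DCBQ sample, since it was 0.016 points without it. It was 0.187 points without the second DCBQ sample. The level varied with the 5mC state of the tile, with 5hmC highest where 5mC was intermediate. The deposited 5hmC values do not go below 0 except by rounding, and the spread was also widest there. The median SD within a tile was 1.926 points over DCBQ samples and 1.854 over controls at 20% to 80% 5mC. Under 20% it was 0.685 over DCBQ samples and 0.657 over controls. Whether noise above that floor raised these means was not tested. Shores of 20% to 50% 5mC had 5.153% ± 0.309 5hmC in DCBQ samples and 4.953% ± 0.150 in controls, those under 5% had 1.110% ± 0.028 in DCBQ samples and 1.116% ± 0.062 in controls, and those at 80% to 95% had 3.346% ± 0.207 in DCBQ samples and 3.237% ± 0.184 in controls. Beside low dense tiles 5hmC was 2.279% in DCBQ samples and 2.176% in controls in the first 200 bp, with groups apart (exact permutation p = 0.1). In the bins farther out, where the groups overlapped, it was between 3.412% and 3.826% in DCBQ samples and 3.298% and 3.670% in controls. Over all shores the first 200 bp read 2.822% in DCBQ samples and 2.754% in controls, with overlap, and groups were apart only at 1001 to 1200 bp.

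In the most methylated shores, the 302 tiles at 95% or more 5mC, 5hmC read 2.409% ± 0.108 in DCBQ samples and 2.145% ± 0.110 in controls, a difference of 0.264 points (SE 0.089) with groups apart. The 5686 other tiles of that class differed by 0.285 points (SE 0.069), and the contrast of shores with them was -0.021 points (SE 0.046, groups overlapping). Shores had less 5hmC than other tiles, by -0.716 points on average in DCBQ samples and -0.669 in controls, and that gap differed between the conditions by -0.047 points (SE 0.034, exact permutation p = 0.3). Over the 8431 tiles with both marks, the condition differences of 5mC and 5hmC correlated at -0.606 across tiles. Deviations of single samples from their own group's mean correlated between the marks at -0.639 to -0.578, about as strongly.

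No single shore tile passed. With limma on the untransformed tile level, fitted over all 210424 tiles of at least 5 CpGs that varied, the number with a Benjamini-Hochberg adjusted p under 0.05 was 0 for 5mC in shores and 0% of all tiles. Of 8639 shore tiles tested, 433 (5.01%) had an unadjusted p under 0.05 and were lower in DCBQ, against 4.47% of all tiles, and 169 (1.96%) were higher, against 1.73%. The groups did not overlap in 691 lower tiles (8%, against 8.11% of all tiles) and 319 higher ones (3.69%, against 3.39%). A difference below 0 was found in 5105 (59.1%), against 59.8% of all tiles. All of these shares are near those of the whole table. The median difference per tile was -0.317 points, with 5% of tiles at or below -4.256 and 5% at or above 2.950, while the median SD within a tile was 1.607 points over DCBQ samples and 1.549 over controls.

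For 5hmC the count was also 0 in shores and 0% of all 201896 tiles. At an unadjusted p under 0.05, 206 of 8425 shore tiles (2.45%) were lower in DCBQ, against 2.08% of all tiles, and 259 (3.07%) were higher, against 2.75%. Groups were apart in 356 lower (4.23%, against 4.39%) and 435 higher tiles (5.16%, against 5.55%). The difference was below 0 in 4024 (47.8%), against 47.2% of all. The smallest adjusted p among shore tiles was 0.706 for 5mC and 0.974 for 5hmC.

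The tiles named next have the smallest p in each direction and were chosen for their difference, so the values describe them and none passed. The smallest p among lower 5mC values was that of HSBP1L1, a gene related to heat shock factor binding protein, 2 tiles from a dense tile with 25.25% 5mC (chr18:79966001-79967000, 10 CpGs). It read 81.13%, 83.50% and 80.61% in DCBQ samples, against 100%, 97.51% and 95.56% in controls. The tile was nearly fully methylated in controls, and all 3 DCBQ samples were lower (limma difference -15.94, SE 1.45, adjusted p = 0.706). Its 5hmC was 10.83%, 4.55% and 20.17% in DCBQ samples, against 0%, 0.83% and 3.33% in controls, without overlap (limma adjusted p = 0.974). The marks varied against each other within single samples, as given above, so this 5hmC reading does not back the 5mC reading.

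A tile within 2 kb of ALDH1A3, a retinoic acid synthesis gene, and overlapping LOC124903575 (chr15:100878001-100879000) read 39.39%, 39.06% and 37.56% in DCBQ samples, against 51.12%, 53.81% and 56.14% in controls. TBC1D24, a gene of vesicle trafficking (chr16:2494001-2495000), read 50.48%, 41.96% and 46.20% in DCBQ samples, against 63.82%, 66.66% and 60.66% in controls. Both tiles were of intermediate level in each condition. SLC35F1 and TIRAP, an adaptor gene of Toll-like receptors, lie within 2 kb of tiles of low level: 11.38% ± 0.85 in DCBQ samples and 15.98% ± 0.27 in controls for SLC35F1, and 3.10% ± 0.68 in DCBQ samples and 6.23% ± 0.83 in controls for TIRAP. A tile with no protein-coding gene within 2 kb (chr19:34134001-34135000) was listed at 0 in all 3 DCBQ samples, against 1.29%, 2.00% and 2.00% in controls. Genes of other kinds were not looked up.

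Higher 5mC in DCBQ samples was seen at STX11, a syntaxin gene of cytotoxic cells (chr6:144149001-144150000), with 32.69%, 33.48% and 35.11% in DCBQ samples, against 26.03%, 27.53% and 24.93% in controls. MDGA1, a neuronal adhesion gene (chr6:37695001-37696000), read 77.80%, 77.84% and 80.82% in DCBQ samples, against 68.24%, 68.78% and 71.34% in controls. BMAL1, a core clock gene (chr11:13279001-13280000), read 13.04%, 13.96% and 15.89% in DCBQ samples, against 10.15%, 10.86% and 9.19% in controls. In these 3 the groups were apart, each beside a dense tile under 20%. ITPR3, an inositol trisphosphate receptor gene, averaged 2.54% ± 0.59 in DCBQ samples and 0.69% ± 0.02 in controls. Tiles without a protein-coding gene within 2 kb on chromosomes 6 and 2 averaged 11.11% ± 0.17 and 17.85% ± 0.35 in DCBQ samples, against 7.44% ± 0.58 and 14.00% ± 1.12 in controls.

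Among the 5hmC tiles, HDAC10, a histone deacetylase gene (chr22:50247001-50248000), read 5.71%, 5.36% and 9.24% in DCBQ samples and was listed at 0 in all 3 controls, where its 5mC was 100% in each, against 94.28%, 94.64% and 86.02% 5mC in DCBQ samples. A tile on chromosome 18 with no protein-coding gene within 2 kb (chr18:511001-512000) read 8.60%, 10.59% and 10.07% 5hmC in DCBQ samples, against 0%, 1.28% and 1.21% in controls. Its 5mC was 52.59% ± 3.47 in DCBQ samples and 66.60% ± 4.60 in controls. In both tiles 5mC was lower in the DCBQ samples, without overlap. The marks are not independent readings: a 5mC of 100% leaves no room for 5hmC, and they varied against each other within single samples. Neither mark therefore backs the other here. Higher 5hmC in DCBQ samples was also read at ZNF326 (3.11% ± 0.33, against 0.56% ± 0.44 in controls), CLEC18C (5.94% ± 1.25, against 0.73% ± 0.86 in controls), EVL (4.36% ± 1.58, against 0.36% ± 0.31 in controls) and a tile on chromosome 9 (3.19% ± 0.78, with all 3 controls listed at 0). On the lower side, BEGAIN read 2.50%, 0% and 0.87% in DCBQ samples, against 6.50%, 10.11% and 8.99% in controls. LRP5, a WNT co-receptor gene (chr11:68314001-68315000), read 0.43%, 0% and 0.57% 5hmC in DCBQ samples, against 2.41%, 2.22% and 1.99% in controls, while its 5mC averaged 4.80% ± 0.99 in DCBQ samples and 3.02% ± 0.72 in controls. BARX2, MYH9 and CDC42BPB were listed at 0 in all 3 DCBQ samples, against means of 1.01%, 1.35% and 2.12% in controls, and SDF2L1 averaged 0.10% ± 0.10 in DCBQ samples and 1.24% ± 0.27 in controls.

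**Figure D5:**
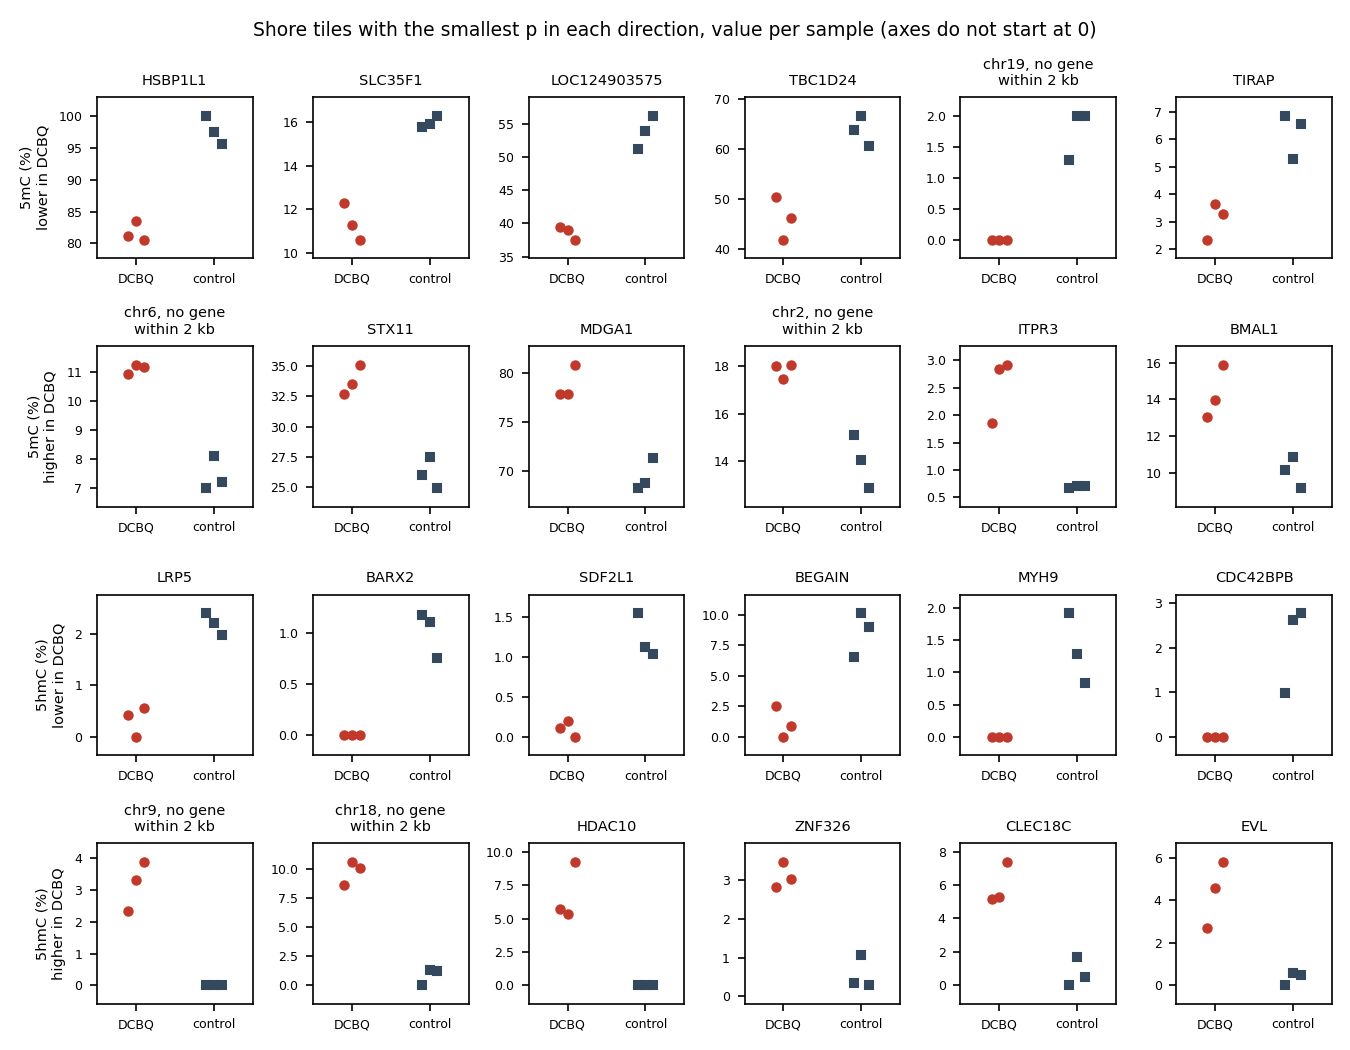
Level per sample in percent of the 6 shore tiles with the smallest limma p for each mark and direction, DCBQ (circles) and control (squares), titled by the protein-coding gene the tile overlaps or lies within 2 kb of. A title of no gene means no protein-coding gene. The axes do not start at 0. The groups are apart in every panel because the tiles were chosen for their difference, and none passed the adjusted threshold.

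Shores of the gene lists gave no calls in either mark, and their median 5mC differences lay on both sides of the -0.33 points of all tiles. Of 28 genes that place, read or remove 5mC, 13 had a shore, with 25 tiles, of which 10 were lower and 15 higher in DCBQ (median 0.24 points). A tile within 2 kb of MBD3, a subunit of the NuRD complex, read 1.96%, 3.58% and 3.80% in DCBQ samples, against 1.20%, 2.02% and 1.42% in controls, with overlap. A tile within 2 kb of MBD2, a reader of methylated CpGs, averaged 86.89% ± 7.40 in DCBQ samples and 95.06% ± 4.10 in controls, with overlap too. Each gene also had a shore tile in the other state, at 83.73% in DCBQ samples and 83.81% in controls inside MBD3, and at 3.77% in DCBQ samples and 1.75% in controls inside MBD2. Of 36 NRF2 targets and quinone detoxification genes only 9 had a shore, with 9 tiles lower and 6 higher (median -0.54 points). MAFG, a small MAF partner of NRF2, read 72.93%, 73.49% and 74.28% in DCBQ samples, against 77.53%, 76.37% and 76.78% in controls, with groups apart (limma adjusted p = 0.789). A tile within 2 kb of GPX4, the peroxidase that protects membrane lipids, overlaps SBNO2 and averaged 50.48% ± 5.08 in DCBQ samples and 58.59% ± 4.28 in controls. The shore tile that overlaps GPX4 itself averaged 85.85% ± 2.03 in DCBQ samples and 84.84% ± 0.72 in controls.

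Of 50 genes often hypermethylated in urothelial tumours 22 had a shore, with 13 tiles lower and 15 higher (median 0.23 points). IRAK3, an inhibitor of Toll-like receptor signalling, read 87.35%, 88.65% and 86.88% in DCBQ samples, against 84.20%, 85.19% and 83.19% in controls. EOMES, a T-box factor gene, read 17.48%, 18.82% and 19.14% in DCBQ samples, against 17.02%, 15.40% and 13.06% in controls. Both had groups apart (adjusted p 0.743 and 0.765 with limma). Of 47 bladder cancer drivers 20 had a shore, with 18 tiles lower and 11 higher (median -0.27 points). FGFR3, a growth factor receptor gene often mutated in urothelial tumours, read 80.19%, 78.12% and 79.15% in the tile before its start in DCBQ samples, against 73.67%, 74.55% and 74.97% in controls, next to a dense tile of 1.09%. FBXW7, a ubiquitin ligase gene, was listed at 0 in the 3 DCBQ samples, against 1.84%, 0.76% and 1.79% in controls. Their limma p of 0.00692 and 0.00506 did not pass (adjusted p = 0.727 for both).

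Among lists meant to check the cell type, the epithelial list had 6 tiles in 5 of 30 genes and the leukocyte, endothelial and fibroblast list 4 tiles in 4 of 28. Mean 5mC was 61.36% in DCBQ samples and 60.82% in controls for the epithelial list. For the other list it was lower, 35.54% in DCBQ samples and 36.15% in controls. So few shore tiles cannot tell the cell type. Of the epithelial tiles 3 were lower and 3 higher in DCBQ (median 0.32 points), and of the others 3 were lower and 1 higher (median -0.98 points). EPCAM, an epithelial adhesion gene, averaged 22.60% ± 0.59 in DCBQ samples and 20.66% ± 0.12 in controls, and the tile near FOXA1, a luminal transcription factor gene, 89.31% ± 0.71 in DCBQ samples and 90.36% ± 0.36 in controls. The fibroblast genes COL1A1 and PDGFRA read 4.49% ± 0.86 and 9.39% ± 1.95 in DCBQ samples, against 2.94% ± 2.26 and 11.41% ± 3.18 in controls.

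HOX genes had 27 shore tiles in 18 of 39 genes, with 15 lower and 12 higher (median -0.24 points). The tile shared by HOXA3 and HOXA5, body pattern genes, read 23.37%, 25.17% and 21.33% in DCBQ samples, against 27.71%, 32.77% and 30.21% in controls. Other developmental factors had the most, with 125 tiles in 67 of 97 genes, 77 lower and 48 higher (median -0.45 points). EMX2, a homeobox gene of the urogenital tract and brain, averaged 18.71% ± 1.89 in DCBQ samples and 15.36% ± 0.46 in controls, and FOXF1, a mesenchymal factor gene, 77.29% ± 4.36 in DCBQ samples and 85.27% ± 3.61 in controls. Imprinted genes had 12 tiles in 8 of 32 genes, 9 lower and 3 higher, with a median of -1.56 points. KCNQ1 averaged 74.01% ± 1.11 in DCBQ samples and 77.56% ± 1.97 in controls, and PLAGL1 3.10% ± 0.25 in DCBQ samples and 2.19% ± 0.85 in controls.

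WNT genes had 47 tiles in 30 of 50 genes, 24 lower and 23 higher (median -0.02 points). WNT9A, a WNT ligand gene, averaged 83.01% ± 0.78 in DCBQ samples and 87.27% ± 2.87 in controls, with groups apart. DNA repair genes had 22 tiles in 14 of 46 genes, 9 lower and 13 higher (median 0.49 points). Housekeeping genes, a list with no part in the exposure by choice, had 11 tiles in 8 of 32 genes, 7 lower and 4 higher (median -0.07 points). RAB7A averaged 85.44% ± 1.77 in DCBQ samples and 89.75% ± 0.94 in controls, and the tile within 2 kb of SDHA, which overlaps CCDC127, 71.99% ± 1.04 in DCBQ samples and 77.03% ± 2.92 in controls, with groups apart in both.

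At the largest CpG count of the rule, 17, there were 419 shore tiles, and the first in genome order for each state of the neighbour is given as an example. CCDC27, beside a dense tile with 4.73% 5mC, was methylated itself at 86.01%, 83.33% and 86.95% in DCBQ samples, against 86.89%, 83.95% and 86.12% in controls. PRDM16, a transcription factor gene, beside a dense tile of 68.71%, read 51.45%, 49.82% and 49.38% in DCBQ samples, against 48.29%, 57.26% and 48.97% in controls. ATAD3A, a mitochondrial membrane gene, beside one of 93.11%, read 90.96%, 91.72% and 84.54% in DCBQ samples, against 93.24%, 88.63% and 92.89% in controls. In all 3 the groups overlapped.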

How the data were processed

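Genomic DNA of SV-HUC-1 cells was made into libraries with Ovation RRBS Methyl-Seq and, for oxidation, TrueMethyl oxBS reagents, per the labels' protocols. The submitters' processing notes name hg38, cutadapt, Trim Galore and BSMAP 2.90, without a role for each. The authors deposited 1 fraction per CpG and sample, from 0 to 1, in a table of 5mC and a table of 5hmC; per the file names, strands were merged and a CpG had at least 5 reads. The sources used here do not say how the assays were combined, and depth is unknown. The columns matched a condition but not a single library, and 0 columns belonged to other samples. Fractions were multiplied by 100, 3770 5hmC values just below 0 were set to 0, and CpGs were averaged within 1 kb tiles. Tile means were averaged with equal weight per sample, and the conditions were set against each other by exact permutation (two-sided, 20 relabellings), adjusted by Benjamini-Hochberg over 8 contrasts. Errors of such differences are SE from the spread of samples.

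For single tiles, limma 3.58.1 under R 4.3.3 was run (lmFit, eBayes with trend) over every tile with at least 5 CpGs, threshold 0.05, checked on simulated data; 4 shore tiles for 5mC and 6 for 5hmC did not vary and were not tested. Other values came from Python 3.11.15 with pandas 2.3.3, numpy 2.4.6 and, for adjustment, statsmodels 0.14.6; matplotlib 3.10.9 drew the plots. Gene positions and promoters came from RefSeq tables of GRCh38.p14. All 311668 measured CpGs inside promoter windows fell on a CG (100%). Promoters on chromosome 8 were not used. Tiles named in the text are the 6 of smallest limma p per mark and direction, the 2 genes of smallest 5mC p for each of 12 lists (tile overlapping the gene or within 2 kb), and the tile with most CpGs for each state of the neighbour (the first in genome order among 419 tied at 17). Some genes chosen this way are not reported here. The members and lists were chosen with earlier results of these data known.

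Alternatives were CpGs weighted equally, a dense threshold of 60 CpGs, at least 9 CpGs, CpGs in both tables, either distance alone, other tiles over 10 tiles away, logit levels, no variance trend, testing tiles of 5 to 17 CpGs alone, a replicate block and leaving out each sample. Weighting other tiles by level was added after the data were seen.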

Additional observations from a re-analysis of the deposited data

How the results depend on the processing

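Of 128 recomputed values, 124 kept their direction, or their count of 0, and 4 reversed. Those of the 8 contrasts with the replicate number as a block equal the main values by arithmetic and could not reverse. The exact test of the contrasts cannot reach 0.05 with so few samples, so their side of that threshold says nothing about stability. The p of 0.1 became 0.2 for shores minus other tiles, 5mC, without any 1 of the DCBQ samples, and for the first minus the second tile without the third DCBQ sample, the first control or the third control. The lower 5mC of shores was -0.544 to -0.390 points when each sample was left out in turn, and the 5hmC difference 0.016 to 0.187 points. Shores minus other tiles, 5mC, stayed above 0 without any single sample, at most 0.157 points, but reversed to -0.053 points with tiles 2 away alone. Shores beside low minus beside high dense tiles reversed to -0.092 points with tiles 2 away alone and was -0.034 to 0.109 without single samples, with the lowest value without the first control. Shores minus dense tiles, 5hmC, was -0.004 to 0.109 points without single samples, with the lowest value without the third DCBQ sample. The cause of these reversals was not tested. Weighting other tiles to the shores' 5mC levels gave 0.074 points for 5mC and -0.022 for 5hmC. The number of tiles called stayed 0 for both marks under every alternative run. Same-numbered samples did not deviate together from tile to tile (correlations -0.013 to 0.020 for 5mC and -0.059 to 0.020 for 5hmC over shore tiles). These correlations cannot show a shift common to all tiles of a sample. They do not tell whether same-numbered samples shared a culture or batch. With the replicate number as a block the differences are the main ones by arithmetic, -0.479 points for 5mC (exact sign-flip p = 0.25, the smallest possible) and 0.110 for 5hmC. The block can change only their p. In limma with this block, 0 tiles were called. Depth per CpG is unknown, and with 3 samples per condition even the smallest unadjusted p of a shore tile, 1.43e-05 at HSBP1L1, gave an adjusted p of 0.706.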
